A study of Drosophila melanogaster with 9 samples.

Results

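The 10 genes described here encode Polycomb repressive complex 1 (PRC1) and the DNA-binding Pho repressive complex (PhoRC) of Drosophila melanogaster. They were taken by FlyBase symbol from a list of names, Pc, ph-p, ph-d, Psc, Su(z)2, Sce, Scm, Sfmbt, pho and phol, and all 10 were found among the 17611 gene IDs that were counted. Polyadenylated RNA of whole first instar larvae was sequenced in 9 libraries. The groups were wild-type males, males of genotype roX1[ex6]roX2[9-4] that lack both roX RNAs (roX-KO males), and wild-type females, with 3 libraries each. The labels do not say whether animals were pooled, whether replicates came from separate cultures or how the wild-type stock relates to the mutant, so the spread behind each p-value may be technical. The roX RNAs are noncoding RNAs of the male dosage compensation complex, which raises transcription of the single male X, and the title of the series concerns a role of roX in repression on the autosomes.

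Polycomb proteins keep developmental genes silent once they have been switched off, the Hox genes being the textbook case. PhoRC binds DNA at Polycomb response elements, PRC2 methylates histone H3, and PRC1 binds that mark, ubiquitinates histone H2A and compacts chromatin. Within PRC1, Pc reads the methyl mark through its chromodomain, the polyhomeotic proteins (ph-p and ph-d) assemble into chains through a SAM domain, Psc and Su(z)2 are related RING finger proteins that compact nucleosomes, and Sce is the ubiquitin ligase. Scm joins PRC1 to the other complexes. In PhoRC, the zinc finger protein Pho or its relative Phol pairs with the methyl-lysine binding protein Sfmbt.

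Counts in genes came to between 17318293 and 18020359 per library, and the counts of roX1 and roX2 separated the groups as labelled, with 4964 to 6002 roX1 counts in wild-type males, 52 to 68 in roX-KO males and 314 to 440 in females. Salivary glue genes, which are switched on late in larval life, summed to at most 1.27 CPM (counts scaled to library size) in any library. The sums ran from 1.02 to 1.27 in wild-type males, 0.106 to 0.599 in roX-KO males and 0.486 to 0.656 in females. Such low sums of late genes cannot show whether the groups differed in age within the early stages. Female 3 stood apart from the other females, with Pearson's r over genes of 0.955 and 0.958 against 0.996 between females 1 and 2. In female 3, 8 of the 10 members lay below their mean in the other females, with a median log2 difference of -0.54. Wild-type male 2 lay below the mean of the other wild-type males in 9 of 10 members, with a median of -0.26. Over all genes the deviations of these 2 libraries from their group means correlated at r = 0.667. Member folds are also given below without wild-type male 2 between the male groups, and without female 3 where they changed a call against females.

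The members were expressed at low to moderate levels, and their order was led by pho in all groups. The levels that follow are CPM after trimmed-mean (TMM) scaling over the 9 libraries, per kilobase of exon. In wild-type males pho, which lies on chromosome 4, stood at 16.8 ± 2.63 (SD, n = 3) CPM per kilobase. It was followed by Scm at 9.18 ± 1.31, Sce at 8.40 ± 1.35 and phol at 7.82 ± 0.530. Within this run Scm and Sce, and Sce and phol, overlapped in their ranges. Sfmbt stood at 6.61 ± 0.668 and Pc at 4.60 ± 0.359, each apart from its neighbours in the order. Below Pc came Su(z)2 at 2.94 ± 0.598, ph-p at 2.34 ± 0.256 and Psc at 2.26 ± 0.464, which overlapped, and ph-d was lowest at 1.42 ± 0.0952. The levels of ph-p and ph-d are uncertain, since reads without a unique alignment were not counted and the copies are similar in sequence. In roX-KO males the order was the same except that Psc (3.35 ± 0.305) and ph-p (3.05 ± 0.115) changed places with overlapping ranges. In females the order was pho, Sce, phol, Scm, Pc, Sfmbt, ph-p, Su(z)2, Psc and ph-d. There only Sfmbt and ph-p did not overlap among neighbours, pho having 13.2 ± 2.94 and ph-d 1.62 ± 0.265. Raw counts of a member ran from 122 to 1061 per library, and all 10 passed the filter on low counts in every comparison.

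**Figure D1:**
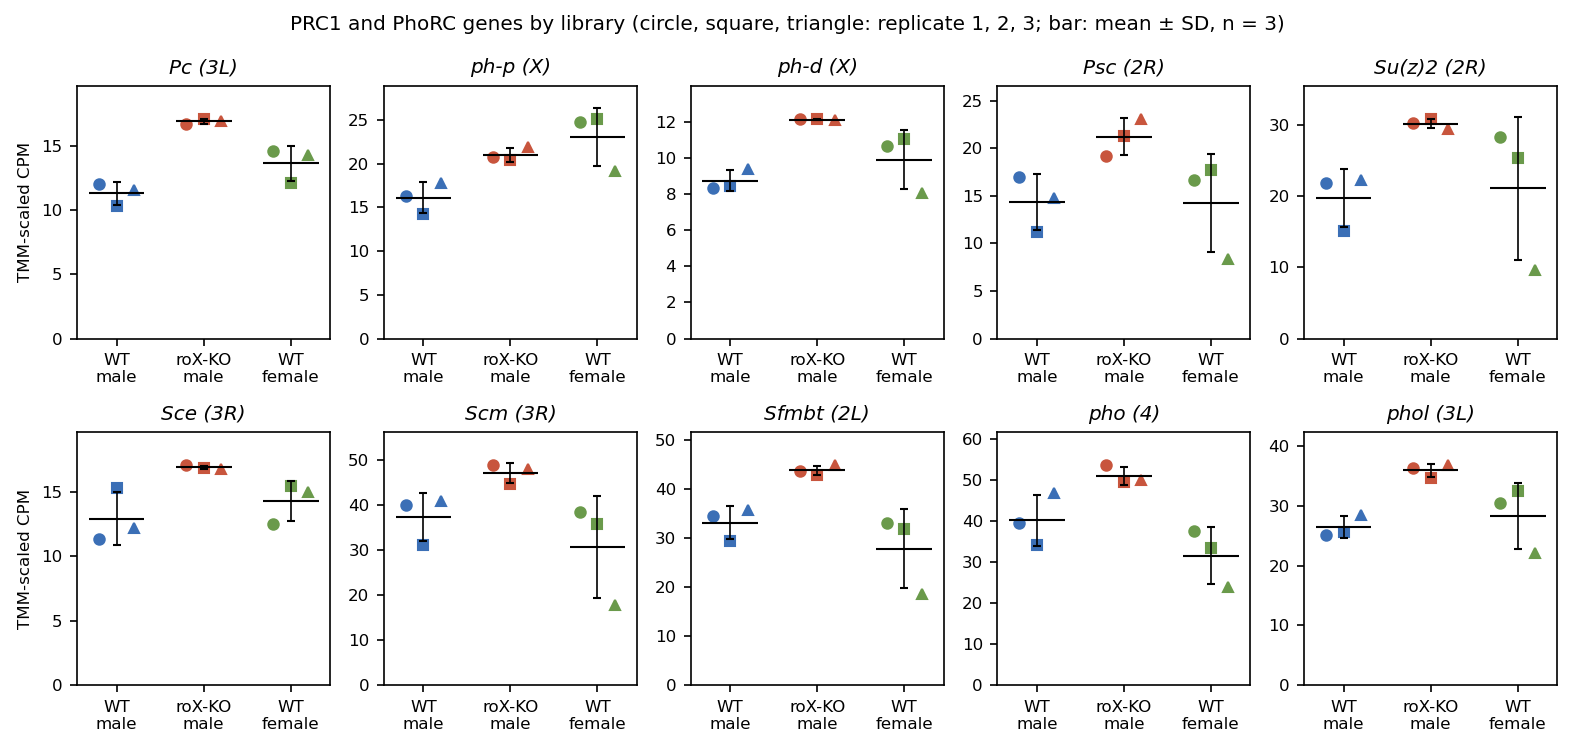
TMM-scaled CPM of each member (y axis, from 0) in the 9 libraries, by group on the x axis, with the chromosome in brackets; circles, squares and triangles are replicates 1, 2 and 3, and bars give the mean ± SD (n = 3). The 3 roX-KO libraries lie above the 3 wild-type male libraries for every member, and female 3 (green triangle) is the lowest library for Psc, Su(z)2, Scm, Sfmbt, pho, phol and ph-d.

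All 10 genes were higher in roX-KO males than in wild-type males, by 1.27-fold for Scm to 1.54-fold for Su(z)2. This comparison asks what loss of the roX RNAs changes in male larvae. The median log2 fold of the members was 0.43, against 0.02 over the 11172 genes tested. Each member passed at an adjusted p under 0.05 in edgeR's quasi-likelihood test, and 0 were lower, by adjusted or unadjusted p and by DESeq2 as well. In this comparison 31.4% of all genes tested were called higher and 32.1% lower (3505 and 3588 genes, or 5467 and 2395 when scaled by total counts), so a call by itself is common here. The 2 groups did not overlap in CPM for any of the 10, while among all genes tested 34.7% lay wholly above. A fit over all 9 libraries, with the females in the estimate of the spread, called 5 of the 10 (Pc, ph-p, ph-d, Sce and phol), and there 18.0% of all genes were called higher and 21.4% lower. The RNA comes from whole larvae, in which more cells of a type and more RNA per cell cannot be told apart. Without wild-type male 2 all 10 were still called higher, and the log2 folds of 9 were smaller, at 0.52 for Pc, 0.31 for ph-p, 0.46 for ph-d, 0.42 for Psc, 0.46 for Su(z)2, 0.23 for Scm, 0.33 for Sfmbt, 0.25 for pho and 0.43 for phol. That of Sce was larger, at 0.53. The values by gene that follow include this library. In the authors' deposited table of the male libraries all 10 were also higher, with log2 folds from 0.34 for Scm to 0.61 for Su(z)2 and adjusted p from 2.51e-05 to 0.0132.

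Pc (FBgn0003042, 3L, 21306138 to 21318020, dm6), the chromodomain reader of PRC1, had 12.02, 10.3 and 11.6 CPM in wild-type males and 16.7, 17.1 and 17.0 CPM in roX-KO males. The lowest knockout library thus lay well above the highest wild-type one. Its log2 fold was 0.59 ± 0.09 (SE, n = 3 per group; edgeR adjusted p = 0.000123). Sce (FBgn0003330, 3R, 27680431 to 27682029), the ligase for histone H2A, had 11.3, 15.3 and 12.2 CPM in wild-type males and 17.1, 16.9 and 16.8 CPM in roX-KO males. Here wild-type male 2 was the highest of its group, unlike in the other members, and still lay below the knockout libraries. The log2 fold of Sce was 0.39 ± 0.11 (edgeR adjusted p = 0.00734), and without wild-type male 1 it was 0.29 with an adjusted p of 0.0512 (range over 15 alternatives 6.51e-05 to 0.0512). This was the only member's call lost when a library was left out.

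The RING finger genes Psc (FBgn0005624, 2R, 12965997 to 12980994) and Su(z)2 (FBgn0265623, 2R, 12996501 to 13007911) lie side by side, 15506 bases apart, and had the largest SD relative to the mean among the members in wild-type males. Psc had 17.0, 11.2 and 14.8 CPM in wild-type males and 19.2, 21.3 and 23.1 CPM in roX-KO males. Su(z)2 had 21.8, 15.1 and 22.3 CPM in wild-type males and 30.2, 30.8 and 29.5 CPM in roX-KO males. In both genes the lowest value belonged to wild-type male 2. The log2 folds were 0.57 ± 0.13 for Psc (edgeR adjusted p = 0.00224) and 0.62 ± 0.12 for Su(z)2 (edgeR adjusted p = 0.000765). Of 13 other genes tested within 50 kb of this pair, 5 were higher and 2 lower, with a median log2 fold of 0.15. The 5 are near the share over the autosome arms, where 34.6% of genes were called higher and 27.2% lower.

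The polyhomeotic genes ph-d (FBgn0004860, 2115727 to 2123286) and ph-p (FBgn0004861, 2126210 to 2138371) are a tandem duplication on the X, 2923 bases apart. The gene ph-p had 16.4, 14.3 and 17.8 CPM in wild-type males and 20.8, 20.4 and 21.9 CPM in roX-KO males. The gene ph-d had 8.33, 8.46 and 9.40 CPM in wild-type males and 12.1, 12.2 and 12.1 CPM in roX-KO males. Both sets of knockout libraries lay above their wild-type counterparts, and those of ph-d were nearly identical to each other. The log2 folds were 0.39 ± 0.10 for ph-p (edgeR adjusted p = 0.00345) and 0.48 ± 0.10 for ph-d (edgeR adjusted p = 0.000866). Because the 2 copies are similar in sequence and reads without a unique alignment were not counted, the split of reads between them is uncertain.

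Scm (FBgn0003334, 3R, 9633359 to 9637611), which joins PRC1 to PRC2 and PhoRC, had 40.0, 31.2 and 40.8 CPM in wild-type males and 48.9, 44.7 and 48.0 CPM in roX-KO males. Its log2 fold, 0.34 ± 0.10 (edgeR adjusted p = 0.00950), was the smallest of the 10. Sfmbt (FBgn0032475, 2L, 13169649 to 13176785), the partner of Pho, had 34.4, 29.3 and 35.6 CPM in wild-type males and 43.6, 42.9 and 44.8 CPM in roX-KO males. The groups lay apart, with a log2 fold of 0.41 ± 0.09 (edgeR adjusted p = 0.00110). Genes on the other strand cover 18.4% of the exon length of Sfmbt, 7.74% of that of Scm and 2.44% of that of Pc, and since the strand setting of the counting is not given in the sources used here, some of these reads could belong to those genes.

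The DNA-binding genes of PhoRC rose as well. For pho (FBgn0002521, chromosome 4, 1172469 to 1181628), a relative of mammalian YY1, there were 39.4, 34.1 and 46.6 CPM in wild-type males and 53.4, 49.4 and 49.8 CPM in roX-KO males. For phol (FBgn0035997, 3L, 9452803 to 9456281) there were 25.2, 25.7 and 28.5 CPM in wild-type males and 36.4, 34.7 and 36.8 CPM in roX-KO males. The gap between the groups was narrow in pho and wider in phol. The log2 folds were 0.35 ± 0.10 for pho (edgeR adjusted p = 0.00953) and 0.45 ± 0.08 for phol (edgeR adjusted p = 0.000332).

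**Figure D2:**
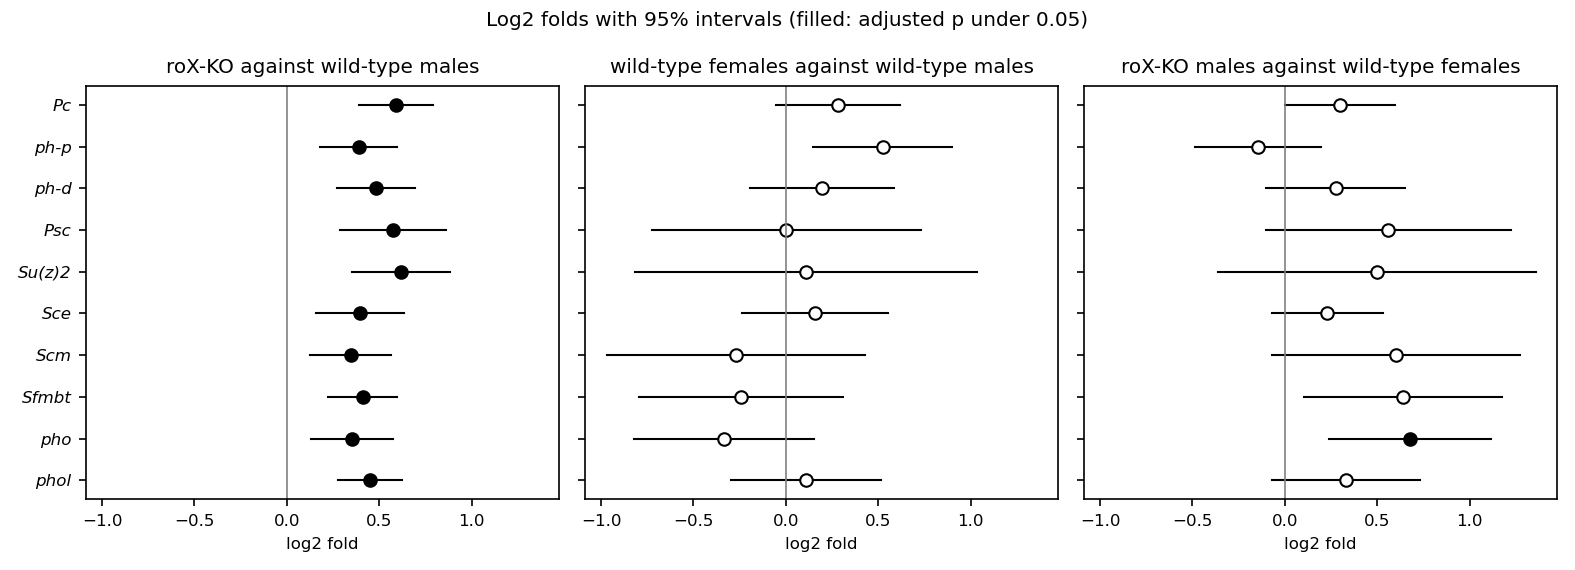
Log2 fold of each member (x axis) with its 95% interval in the 3 comparisons; filled points passed at an adjusted p under 0.05. All 10 passed and were higher in roX-KO against wild-type males, none passed in females against wild-type males, and pho alone passed in roX-KO males against females.

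The rise of ph-p and ph-d ran against their chromosome. Of 1751 X genes tested, 13.3% were called higher and 58.9% lower in roX-KO males, with a median log2 fold of -0.41 and an upper quartile of -0.01. Of these genes 11.3% had a larger log2 fold than ph-p and 9.42% a larger one than ph-d. Taken within each library against the median of X genes, ph-p was 0.80 higher in roX-KO males on the log2 scale and ph-d 0.89 higher, larger differences than for any of the other 8 members. Neither gene overlapped between the groups (exact two-sided permutation p = 0.1, the smallest that 3 libraries against 3 allow; 0.143 adjusted over 30 such tests). The genes around them did not share their direction. Within 50 kb of the pair, 24 other genes were tested, of which 17 were lower and 1, CG3630, was higher (log2 fold 0.54), with a median of -0.59.

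The other members lay on autosomes. Against the median of genes on arms 2L, 2R, 3L and 3R in the same library, Su(z)2 was 0.57 higher on the log2 scale, Psc and Pc 0.52, phol 0.38, Sfmbt 0.35, Sce 0.34 and Scm 0.29, with no overlap between groups for any of these 7 (exact permutation p = 0.1). Without wild-type male 2 these differences were 0.39, 0.36, 0.46, 0.36, 0.26, 0.46 and 0.16 in the same order, with an exact permutation p of 0.2 for Scm. On the arms 34.6% of 9286 genes were called higher and 27.2% lower, and between 15.5% (Su(z)2) and 29.3% (Scm) of them had a larger log2 fold than the member. For pho, chromosome 4 itself shifted: 55.4% of its 92 tested genes were called higher and 16.3% lower, with a median log2 fold of 0.30. Against that median pho was 0.06 higher, with overlapping groups (exact permutation p = 0.3), and 47.8% of chromosome 4 genes had a larger log2 fold.

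**Figure D3:**
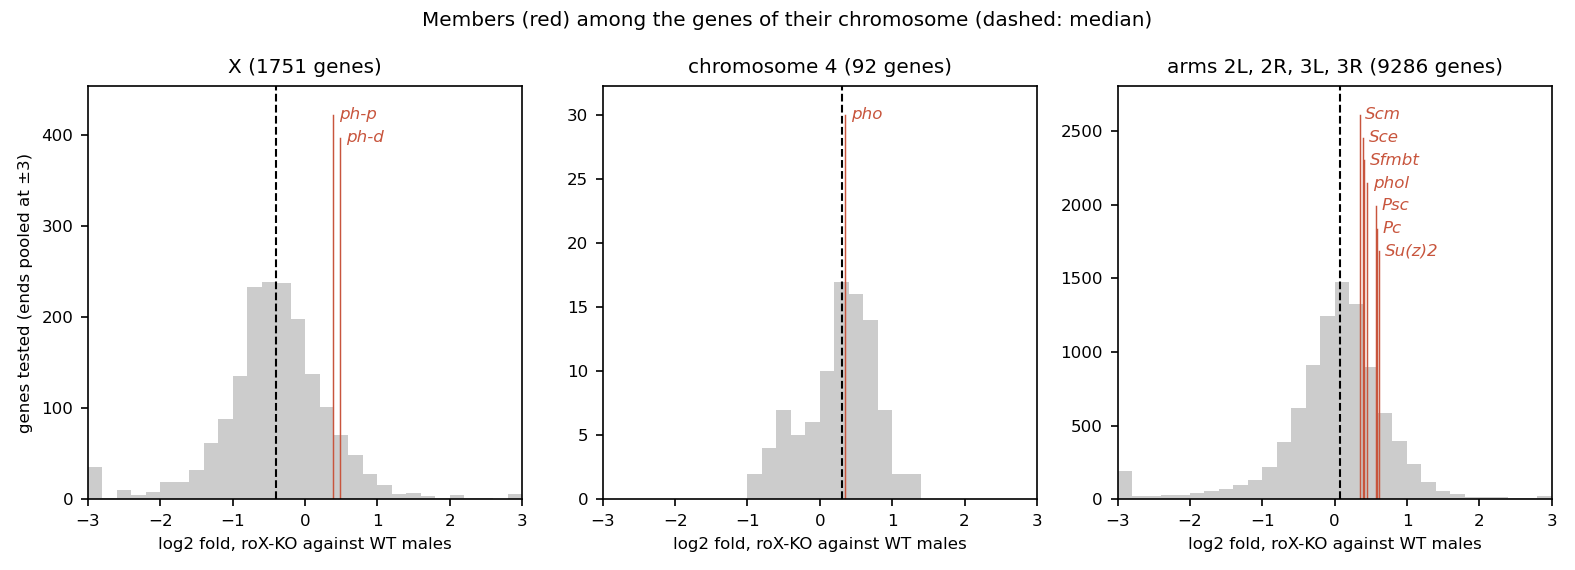
Histograms of the log2 fold in roX-KO against wild-type males (x axis, 0.2 per bin; y axis, genes tested) for the X, chromosome 4 and the 4 large autosome arms, with the median dashed and the members in red. The genes ph-p and ph-d lie to the right of most X genes (median -0.41), pho lies next to the median of chromosome 4 (0.30), and the other 7 lie above the arm median (0.08) within the bulk of arm genes.

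The make-up of the larval RNA also differed between the male groups, measured by marker lists. Summed CPM of 8 neuronal genes ran from 303 to 396 in wild-type males and from 592 to 618 in roX-KO males. Of the 8, 7 were called higher and 1 lower. Beside the calls in this and the following lists, 31.4% of all genes tested were called higher and 32.1% lower. Summed CPM of 5 glial genes ran from 278 to 342 and from 440 to 445, with 4 called higher and 0 lower. The muscle list of 8 genes ran from 37580 to 40029 in wild-type males and from 19483 to 20075 in roX-KO males, and the cuticle list of 8 from 324 to 386 and from 45.1 to 45.7, with all 8 genes of each called lower. Fat body (5 genes, 3581 to 4450 against 3081 to 3164), hemocyte (6 genes, 323 to 358 against 160 to 168) and neural stem cell genes (5 genes, 23.7 to 25.3 against 17.1 to 19.4) were also lower in sum. The sums of 5 germline genes overlapped (36.6 to 41.1 and 37.6 to 38.6). By gene, fat body had 0 called higher and 4 lower. Its log2 folds ran from -3.22 to 0.24, so the sum does not give the change of each gene. Neural stem cells had 0 higher and 4 lower. Hemocytes and the germline each had 1 higher and 3 lower. No gene of these lists was at 0 in a whole group. The part of tissue make-up in the rise of the Polycomb genes was not tested.

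Wild-type females and wild-type males did not differ in any member at an adjusted p under 0.05. The comparison sets the knockout beside larvae that lack the male dosage compensation complex without a mutation. By edgeR 0 of 10 were called in either direction, with 1 higher (ph-p) and 0 lower at an unadjusted p under 0.05, and DESeq2 called ph-p higher. Of all genes 10.8% were called higher and 11.2% lower. Pc and ph-p lay wholly above the males and the other 8 overlapped, while 20.6% of all genes lay wholly above and 21.2% wholly below. In the fit over all 9 libraries ph-p was called higher, with 15.5% of all genes higher and 15.3% lower. The labels name no batch, so one that differed between the groups cannot be told apart from sex. The extraction text of the female samples speaks of male larvae, while the roX counts separated the groups as labelled.

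The member closest to a call was ph-p, with 24.7, 25.1 and 19.2 CPM in females 1, 2 and 3. All lay above the wild-type males, and the log2 fold was 0.52 ± 0.16 (SE, n = 3 per group; edgeR adjusted p = 0.0567). Of 1751 X genes 20.0% had a larger log2 fold. Against the X median of each library ph-p was 0.45 higher in females (exact permutation p = 0.1, the smallest possible, and 0.143 adjusted), and 0.38 without wild-type male 2 (exact permutation p = 0.2). For ph-d, females had 10.6, 11.03 and 8.05 CPM, which overlapped with the males (log2 fold 0.19, 95% interval -0.20 to 0.59). Pc had 14.6, 12.1 and 14.3 CPM in females, just above the males, with a log2 fold of 0.28 and an interval from -0.05 to 0.62. Sce had 12.5, 15.5 and 15.0 CPM and overlapped with the males (0.16, interval -0.24 to 0.55).

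Female 3 was far below the other females in the remaining members. Su(z)2 had 28.2, 25.4 and 9.63 CPM in females and Psc 16.6, 17.7 and 8.31 CPM. For Scm the values were 38.6, 35.9 and 17.7 CPM, for Sfmbt 33.1, 31.8 and 18.5 CPM. For pho they were 37.4, 33.4 and 23.8 CPM, and for phol 30.4, 32.5 and 22.0 CPM. The intervals of these 6 log2 folds all included 0 and were widest for Su(z)2, from -0.82 to 1.03. Without female 3, 4 members were higher in females than in wild-type males and 0 lower, where 26.1% of all genes were called higher and 26.1% lower. These were ph-p (0.64), Su(z)2 (0.45), ph-d (0.32) and phol (0.26). Over its 14 alternatives ph-p passed in 4, with edgeR or DESeq2 adjusted p from 1.91e-05 to 0.194, and Su(z)2, ph-d and phol passed in 2 each. The marker sums of females lay wholly below those of wild-type males for muscle (32522 to 36393 CPM), cuticle (161 to 237 CPM), fat body (1731 to 2240 CPM), neural stem cells (11.9 to 19.2 CPM) and the germline (9.18 to 11.3 CPM). They lay wholly above for hemocytes (375 to 387 CPM) and overlapped for neurons (312 to 538 CPM) and glia (257 to 387 CPM). By gene, with all 3 females, 0 of 8 muscle genes were called in either direction (median log2 fold -0.22). Of the cuticle genes 6 were called lower and 1 higher. Fat body had 4 lower, neural stem cells 2 and the germline 5, each with 0 higher. Hemocytes had 2 higher, neurons 1 and glia 2, each with 0 lower. Of all genes tested there, 10.8% were called higher and 11.2% lower. The part of these differences in the members' values was not tested. With female 3 and wild-type male 2 both left out, a setting chosen after seeing the data, the same 4 members were called higher. There pho was called lower at -0.27. There 31.1% of all genes were called higher and 31.0% lower.

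Against wild-type females, roX-KO males had higher values in 9 of the 10 members, and pho alone passed. This comparison and the 2 above share libraries, so their values are given side by side and not as separate evidence. The groups differ in both sex and genotype, and a batch between them cannot be told apart from these. The log2 fold of pho was 0.68 ± 0.19 (SE, n = 3 per group; edgeR adjusted p = 0.0351). The groups did not overlap for 9 members, ph-p being the exception with a log2 fold of -0.15 (95% interval -0.49 to 0.20), while 28.5% of all genes tested lay wholly above and 26.4% wholly below. Of all genes 10.7% were called higher and 16.6% lower (1193 and 1851 genes, or 1775 and 1311 when scaled by total counts). The fit over all 9 libraries called 2 members, with 16.5% of all genes higher and 21.0% lower. The call of pho was lost when any of the roX-KO libraries or female 2 was left out, with adjusted p from 0.0711 to 0.129, and with TMM factors from arm genes it had an adjusted p of 0.0514. It passed under 8 of 13 alternatives, whose adjusted p ran from 8.83e-06 to 0.129.

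Without female 3, 7 members were higher in roX-KO males than in females and 1 was lower, where 30.0% of all genes were called higher and 31.6% lower. The 7 were pho (0.50, edgeR adjusted p = 8.83e-06), Sfmbt (0.41), Pc and Scm (0.32 each), Psc (0.29), Sce (0.25) and phol (0.17). The gene ph-p was lower, at -0.27 (edgeR adjusted p = 0.00561), the only one of 13 alternatives in which it passed; the others ranged up to 0.05 in log2 fold and to an adjusted p of 0.843. On the X as a whole the median log2 fold in roX-KO males against all 3 females was -0.45, and against the X median of each library ph-p was 0.30 and ph-d 0.72 higher in roX-KO males (exact permutation p = 0.1 each). Without female 3 the difference of ph-p was 0.20.

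The members include 3 pairs of paralogs, and the ratio of counts per kilobase of exon within a library carries no scaling factor. The gene ph-p exceeded ph-d by 1.74, 1.497 and 1.68 times in wild-type males, by 1.52, 1.49 and 1.61 times in roX-KO males and by 2.07, 2.02 and 2.12 times in females. The ratio was thus higher in every female library than in any male library of either genotype. On the log2 scale it was 0.34 higher in females than in wild-type males (exact permutation p = 0.1, 0.225 adjusted over 9 tests; 0.27 to 0.38 when a library was left out). It was 0.09 lower in roX-KO than in wild-type males with overlapping groups (exact permutation p = 0.3). Because the split of reads between ph-p and ph-d is uncertain, the size of their ratio is uncertain too.

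The ratio of pho to phol was 2.22, 1.89 and 2.32 in wild-type males, 2.09, 2.03 and 1.92 in roX-KO males and 1.75, 1.46 and 1.53 in females. Females again lay apart from both male groups, here on the low side. The log2 ratio was 0.44 lower in females than in wild-type males, a difference of -0.44 (exact permutation p = 0.1, 0.225 adjusted). Psc stood below Su(z)2 in all 9 libraries, with ratios from 0.626 to 0.917, and the ratio overlapped between all groups (exact permutation p of 0.8 to 0.9). Between the male genotypes the 3 ratios differed by -0.09 to -0.05 on the log2 scale, less than the SD of wild-type males. Without wild-type male 2 the difference was -0.18 for pho to phol, with groups that no longer overlapped (exact permutation p = 0.1), -0.15 for ph-p to ph-d and -0.03 for Psc to Su(z)2.

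**Figure D4:**
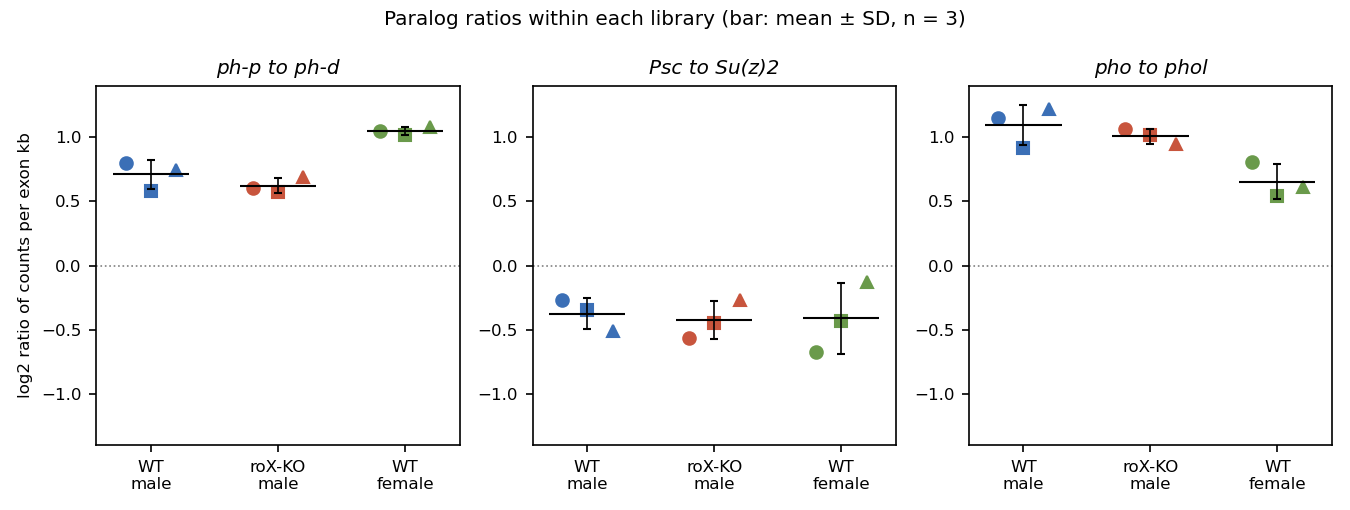
Log2 ratio of counts per kilobase of exon (y axis) for the 3 pairs of paralogs in each library, by group; circles, squares and triangles are replicates 1, 2 and 3, and bars give the mean ± SD (n = 3). Females lie above both male groups for ph-p to ph-d and below them for pho to phol, and the groups overlap for Psc to Su(z)2.

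Other Polycomb genes rose in part in roX-KO males. Of 26 genes in 4 lists that were matched and tested, 15 were called higher and 2 lower, with a median log2 fold of 0.34. Over all genes tested 31.4% were called higher and 32.1% lower, so a call in a short list is common here. Of the 8 genes of PRC2 and its partners 5 were higher and 0 lower: jing (0.80), the zinc finger partner, Su(z)12 (0.66), Jarid2 (0.55), the methyltransferase E(z) (0.52) and Pcl (0.46). The core subunits esc (-0.26) and Caf1-55 (-0.15) and the esc relative escl (0.13) did not pass. Of the 4 genes of the PR-DUB deubiquitinase and of variant PRC1, Kdm2 (0.70), a demethylase found with Sce and Psc, sba (0.49) and Asx (0.44) were higher, and the deubiquitinase gene caly was at -0.07 without passing.

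Factors that bind Polycomb response elements were divided. Beside the counts below, 31.4% of all genes tested were called higher and 32.1% lower. Among X genes these shares were 13.3% and 58.9%. Of 9 genes Spps (0.59), cg (0.50), Adf1 (0.36) and psq (0.32) were higher, while Trl, which encodes GAGA factor (-0.63), and grh (-0.47) were lower. The value of Trl is uncertain, because genes on the same strand cover 77.8% of its exon length. Of 5 other Polycomb genes, E(Pc) (0.49), corto (0.43) and the X gene crm (0.28) were higher. In the authors' deposited table crm had a log2 fold of 0.27 and an adjusted p of 0.0677. The other X genes of these lists, z (0.11), Dsp1 (0.04) and mxc (-0.23), did not pass, so that of 6 X genes among the 36 Polycomb genes of all lists, 3 were called higher (ph-p, ph-d and crm) and 0 lower.

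**Figure D5:**
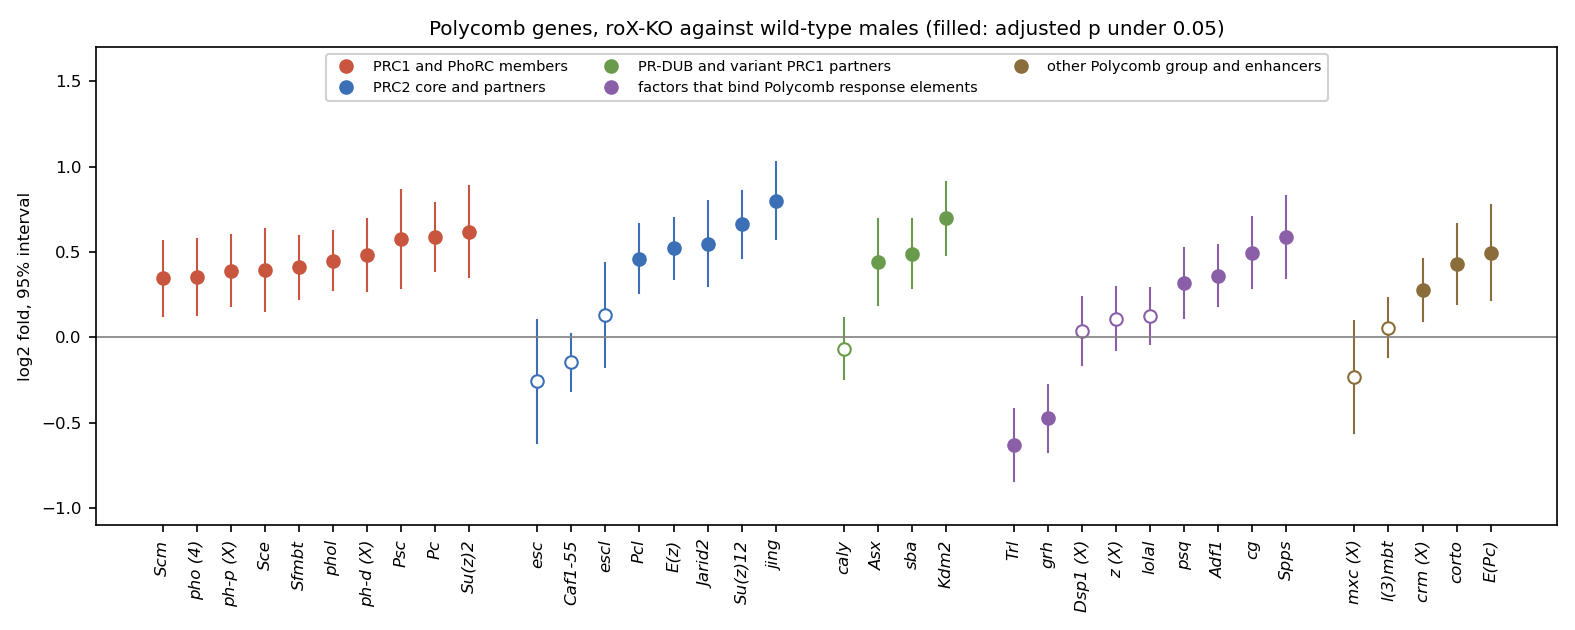
Log2 fold (y axis, with 95% interval) of the 36 Polycomb genes in roX-KO against wild-type males, grouped by list and ordered within it; filled points passed at an adjusted p under 0.05, and X and chromosome 4 genes are marked. The members (red) form the only list in which every gene passed. In the others 15 of 26 rose and 2, Trl and grh, fell, where 31.4% of all genes tested were called higher and 32.1% lower.

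In females against wild-type males 2 of the 26 genes were higher, Adf1 (0.82) and the X gene z (0.61). The genes esc (-0.95) and Caf1-55 (-0.69) were lower. Of all genes tested there 10.8% were called higher and 11.2% lower, so these few calls do not set the 26 apart. In roX-KO males against females esc (0.69), Caf1-55 (0.54) and E(z) (0.52) were higher and z (-0.51) and Adf1 (-0.46) lower. In that comparison 10.7% of all genes tested were called higher and 16.6% lower.

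Likeness of pattern was measured as the root mean square difference of log2 CPM, centred on each gene, over the 9 libraries and among 10941 genes. The genes closest to ph-p were Atg2 (0.0552), axed (0.0616) and CG42613 (0.0753). Closest to ph-d were Tsf2 (0.0479), the member phol (0.0507) and Lnk (0.0525). None of these 6 lies on the X, which held 1751 of the 11172 genes tested between the male groups. Closest to Pc were l(3)80Fg (0.0732), Dark (0.0785) and CG14322 (0.0786), and closest to pho were GramD1B (0.0738), jvl (0.0751) and Su(var)2-HP2 (0.0768). Among the members, Scm and Sfmbt were nearest each other (0.0871), as were Psc and Su(z)2 (0.160), and Sce and Su(z)2 were farthest apart (0.534).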

How the data were processed

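The authors deposited raw counts per gene for each of the 9 libraries; the genome build dm6 and the tools HTSeq 2.0.2, HISAT2 2.2.1, DESeq2 and SAMtools 1.13 are named, with no role or setting, per the submitters' processing notes. Closing lines of the files were left out: reads without a feature were 45.7 to 47.9% of each file's total and ambiguous reads 1.19 to 1.36%. The authors also deposited, for the male libraries, FPKM, a mean signal per gene, log2 folds with errors, a test score, and p-values, per the file headers. Symbols, positions and exon lengths came from an Ensembl annotation in dm6 coordinates, which matched 17556 of 17611 IDs.

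Each comparison was fitted on its 6 libraries with edgeR 4.0.16 (limma 3.58.1, R 4.3.3): filterByExpr (minimum count 10, minimum total 15), TMM, and the robust quasi-likelihood F-test, with Benjamini-Hochberg adjustment over all genes tested. SEs are the fold divided by the square root of F. The fit was tested on simulated data. Log2 CPM used a prior count of 2, and ratios an added count of 0.5. DESeq2 1.42.0, limma on log2(FPKM + 1) and log2(FPKM + 0.1), other scalings and leaving out libraries were alternatives. Python 3.11.15 was used for the rest.

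Named genes were the members, the strongest called genes of the other Polycomb lists and the 3 nearest patterns of ph-p, ph-d, Pc and pho; other list genes and the loci were added after their values were seen. Members and lists were chosen with earlier results of these data known. Su(z)3 and Ino80 had no match. Replicate numbers did not pair libraries: deviations from group means correlated from -0.014 to -0.007 between same-numbered male libraries.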

Additional observations from a re-analysis of the deposited data

How the results depend on the processing

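In roX-KO against wild-type males, 10 members were higher and 0 lower with RLE factors, total counts, arm factors, no filter, DESeq2, the replicate block and limma on FPKM, and 9 to 10 were higher when a library was left out. A fit over all 9 libraries, whose shared dispersion includes female 3, called 5 (Pc, ph-p, ph-d, Sce and phol); the cause was not tested. Total counts moved the median of all genes from 0.02 to 0.25 and that of the members from 0.43 to 0.66. Of 150 member results under alternatives 144 kept their side of the threshold, 6 lost it and 0 reversed.

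In females against wild-type males 0 members were higher in edgeR's main setting and with the replicate block, 1 with DESeq2, 1 over all 9 libraries, 0 to 4 when a library was left out, and 4 higher and 1 lower without wild-type male 2 and female 3, a setting chosen after seeing the data. All genes called were 1197 higher and 1244 lower, and 482 and 615 with the replicate block. In roX-KO males against females 1 member was higher, 3 with total counts, 0 with arm factors, 2 with DESeq2, 2 over all 9 libraries, 1 with the replicate block and 0 to 7 when a library was left out, with 0 to 1 lower. Replicate numbers are only names here: same-numbered females and wild-type males had deviations correlated at 0.396, -0.584 and -0.436. With 3 libraries a group the positions against a chromosome and the ratios cannot pass 0.05. In roX-KO against wild-type males the position of Su(z)2 went from 0.57 to 0.39 without wild-type male 2. That move exceeded the SD of roX-KO males (0.0352) but not that of wild-type males (0.310). Counting error limits ph-d most, with 122 counts in its lowest library.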
